A study of Danio rerio with 3 samples.

Results

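Splicing factor genes were described across 3 RNA-sequencing libraries, each from whole embryos of AB strain zebrafish. The rule for choosing them used symbols and was set with earlier results of these data known. It took the genes whose symbol in the deposited table starts with srsf, hnrnp, snrp, sf3a, sf3b, prpf or u2af and which have values. This gave 75 of the 25386 genes with values: 17 SR protein genes (srsf), 21 hnRNP genes, 12 snrp genes, 9 genes of SF3a and SF3b, 13 prpf genes and 3 U2AF genes. The first library came from maternal-zygotic (MZ) nup85-/-;nup133-/- embryos aged 7 hours post fertilization (hpf) and tagged dome. The second came from embryos of that same genotype aged 4.3 hpf and tagged 1k, and the third from wild-type (WT) embryos aged 4.3 hpf and tagged dome. Dome is a late blastula stage, named for the yolk doming up under the cells, and nup85 and nup133 encode scaffold subunits of the nuclear pore. By the genotype label, the mutant embryos are homozygous mutant for both genes, from the egg onward. The label does not say whether the function of either gene is lost. The labels used here describe neither the alleles nor how many embryos were pooled. In the 4.3 hpf pair, genotype and stage tag differ together, and in the dome pair, genotype and age differ together. In the mutant pair, age and stage tag differ together. Within each pair these cannot be told apart.

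Splicing removes introns from nascent transcripts. It is carried out by small nuclear ribonucleoproteins (snRNPs), each an RNA with a ring of Sm proteins, together with the U2AF and SF3 proteins that recognise the end of the intron and Prp proteins that build and remodel the catalytic machine. SR proteins, named for their serine and arginine repeats, mostly promote the use of the exons they bind, and hnRNP proteins, which coat nascent RNA, often repress it. The early embryo inherits such proteins and their mRNAs from the egg, and its own genome adds transcripts when it becomes active in the blastula.

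Values are FPKM, which divide the fragments of a gene by transcript length and by library size, so levels may be compared between genes, but they are shares of a library and not amounts per embryo. Each group has 1 library, so differences lack any replicate check and were not tested. Ratios are log2 ratios of FPKM + 1, a scale that shrinks the differences of weakly expressed genes, and a gene is counted as higher or lower where that ratio reaches 2-fold. FPKM summed to between 397357 and 431333 per library, and the table gives no counts, so the depth is unknown. In whole embryos fewer cells of a type and less RNA per cell cannot be told apart. The mutated gene nup133 stood at 1.91 FPKM in the MZ 7 hpf library, 0.31 in the MZ 4.3 hpf library and 11.7 in WT, and nup85 at 9.55, 10.35 and 13.2 FPKM in the same order. Of 10 listed early zygotic genes, 10 were 2-fold lower at MZ 4.3 hpf relative to WT, and the list summed to 0.607% of the FPKM at MZ 7 hpf, 0.00073% at MZ 4.3 hpf and 0.178% in WT. A list of 10 maternal genes summed to 0.116%, 0.390% and 0.326% of the FPKM in those libraries. These stage genes differ between the libraries beside every result that follows, and their part in those results was not tested.

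Splicing factor genes were among the most abundant in every library. Together they took 4.24% of all FPKM in the MZ 7 hpf library, 2.40% in the MZ 4.3 hpf library and 3.67% in WT. Their median level was 131 FPKM in the MZ 7 hpf library, 84.6 in the MZ 4.3 hpf library and 119.8 in WT, at or above no less than 96.1% of all genes in each library. By their mean over the libraries, 72 of the 75 reached 1 FPKM, 70 reached 10 FPKM and 45 reached 100 FPKM. The 3 genes under 1 FPKM were srsf7b, hnrnpa3 and hnrnph3, and each is included in the counts over 75 genes. The hnRNP genes hnrnpa0l and hnrnpabb ranked 2 and 4 among all genes by mean FPKM, and the 9 genes of the hnRNP A, B and D types alone made up 39.3% of the family's FPKM in the MZ 7 hpf library, 28.3% in the MZ 4.3 hpf library and 38.0% in WT. The plot of levels by class shows most lines dipping at the MZ 4.3 hpf library.

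**Figure D1:**
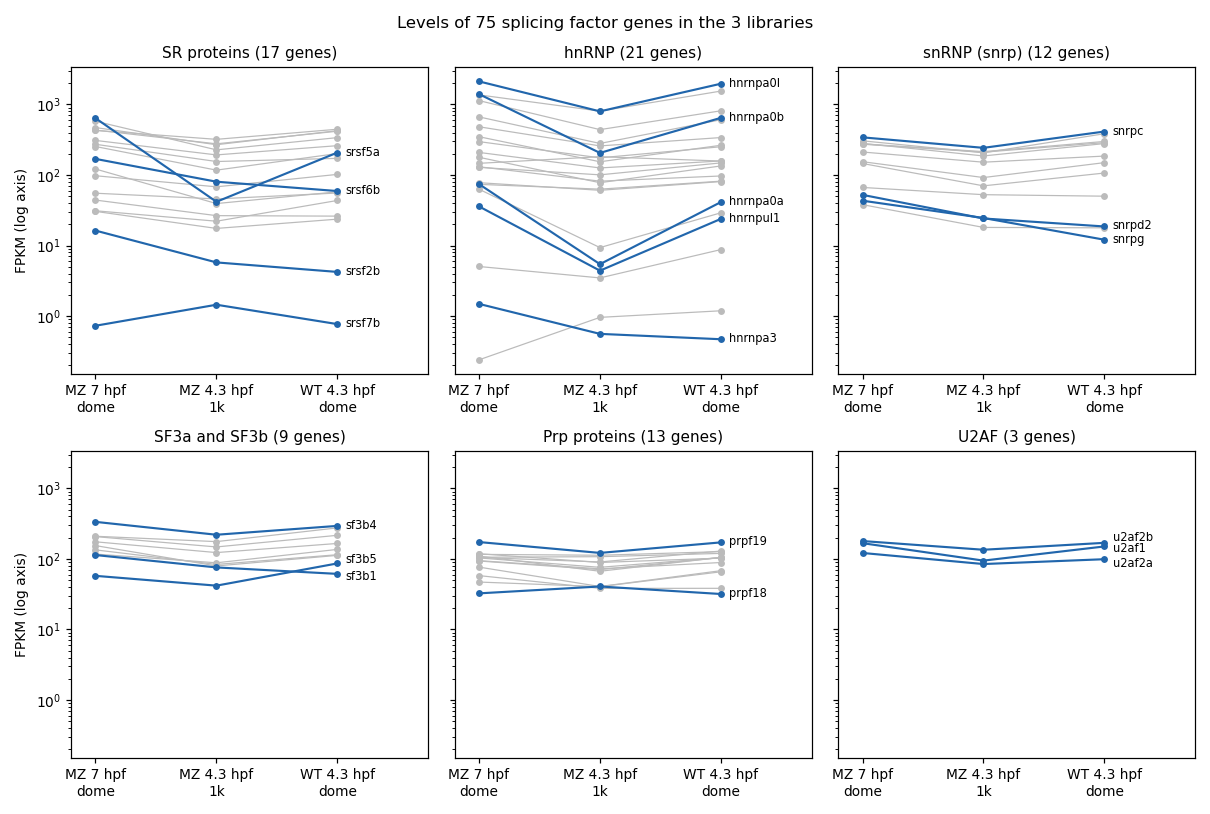
FPKM (log axis) of each of the 75 splicing factor genes in the 3 libraries, 1 panel per class; a line joins the values of 1 gene and named genes are in blue. Prp, SF3 and U2AF genes lie in a narrow band, while srsf5a, hnrnpa0a and hnrnpul1 dip steeply in the MZ 4.3 hpf library.

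At the same clock age, splicing factor transcripts took a smaller share of the mutant library. The log2 ratio of the MZ 4.3 hpf library to WT was below 0 for 63 of 75 genes (84.0%), against 42.2% of the 14306 genes averaging 1 FPKM or more and 45.2% of those averaging 10 FPKM or more. Most differences were modest: the median was -0.49 over the 75 genes, where the median of those 14306 genes was 0.16. At 2-fold, 9 genes were lower (12%, against a background of 9.6%) and 0 were higher (against 16.6%). The genes averaging 10 FPKM or more lie closer to the level of the splicing factors; of these, 7.95% were 2-fold lower and 12.2% higher, and their median ratio was 0.08. Those genes still had a lower median level in WT, 27.7 FPKM against 119.8 for the splicing factors. The count of 2-fold lower genes thus lay near the background, and the family differed from all genes more by its lack of 2-fold higher genes and by its median. This was not particular to the family: of 163 other splicing genes described below, 7 were 2-fold higher and the median was -0.28. Of their lists, Lsm and snRNP assembly genes did not share this, with medians of 0.17 and 0.26, near the 0.16 of all genes. When the libraries were rescaled by the median of ratios the median of all genes shifted to 0.02 and that of the 72 measured members to -0.66. Their distance from all genes was -0.66 as deposited and -0.65 to -0.68 under 3 other scalings. A scaling moves all genes of a library together, so this distance could change only through the pseudocount. Its stability is therefore no check of the result.

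At the same morphology the family lay slightly above WT. Relative to WT, the log2 ratio of the MZ 7 hpf library was above 0 for 49 of 75 genes (65.3%), against 47.4% of genes averaging 1 FPKM or more and 41.1% of those averaging 10 FPKM or more. The median was 0.14, where that of all genes was -0.05. At 2-fold, 9 genes were higher (12%, against backgrounds of 13.9% and 9.26%) and 0 were lower (against 12.5% and 13.5%). Scaling on proteasome genes, which themselves had a median of 0.51 here, turned the sign of the family and of each class median: 56 of 75 genes were then below 0, with 4 higher and 2 lower at 2-fold, and the median of all genes moved to -0.45. The members' distance from the median of all genes was 0.20 as deposited and 0.14 under that scaling, which acts on it only through the pseudocount. Shares of all genes past 2-fold under that scaling are not given here, so the rescaled counts cannot be set against genes at large.

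Between the mutant libraries, splicing factor transcripts had a larger share of the 7 hpf library. The log2 ratio of MZ 7 hpf to MZ 4.3 hpf was above 0 for 70 of 75 genes (93.3%), against 39.9% of genes averaging 1 FPKM or more and 41.4% of those averaging 10 FPKM or more. At 2-fold, 18 genes were higher (24.0%, against backgrounds of 13.8% and 9.63%) and 0 were lower (against 22.2% and 22.6%). The 18 comprised 9 hnRNP, 6 SR protein and 3 snrp genes. When the libraries were scaled to equal sums, 13 genes passed: 9 hnRNP, 4 SR protein and 0 snrp genes. The median was 0.60, where that of all genes was -0.21. With proteasome scaling 6 genes were 2-fold higher and 0 lower, and the SF3, Prp and U2AF medians were just below 0. The median of all genes moved to -0.67, and shares of all genes past 2-fold under that scaling are not given here. The members' distance from all genes was 0.77, against 0.84 as deposited, a distance that scaling moves only through the pseudocount. These 3 comparisons share libraries in pairs, so they are not independent of each other.

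**Figure D2:**
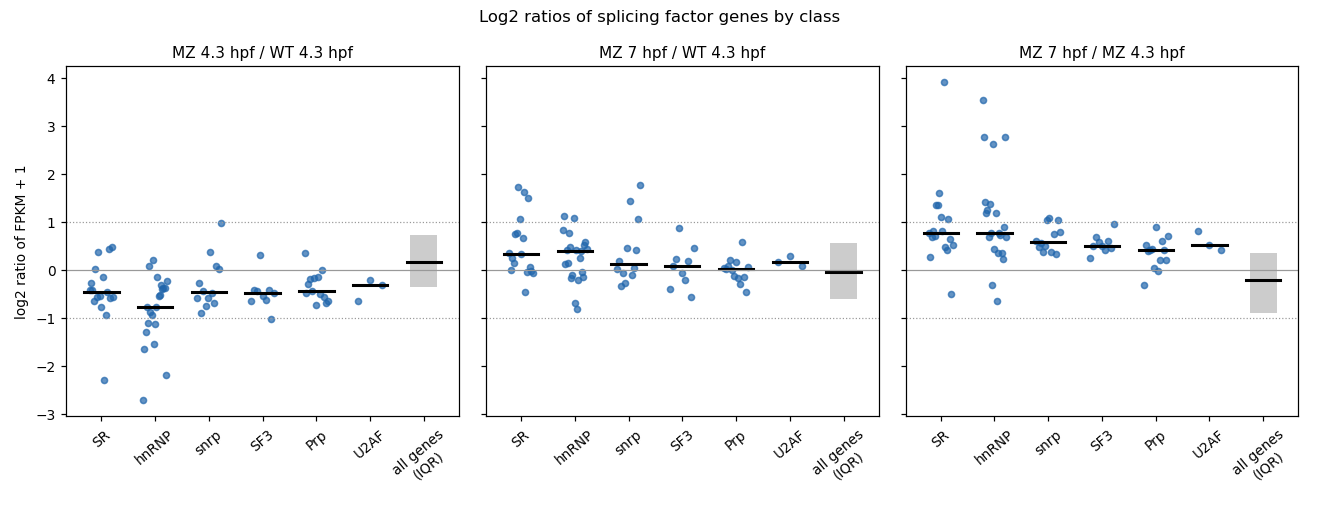
Log2 ratios of FPKM + 1 for the 75 genes by class in the 3 comparisons; points are genes, black bars are medians, dotted lines mark 2-fold, and the grey box spans the interquartile range of the 14306 genes averaging 1 FPKM or more. In MZ 4.3 hpf over WT the median of hnRNP genes is the lowest at -0.77, and in MZ 7 hpf over MZ 4.3 hpf every class median lies above that of all genes.

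SR proteins bind exonic enhancers and are moved between nucleus and cytoplasm by phosphorylation of their repeats. Of 17 SR protein genes, 1 was 2-fold lower and 0 higher in MZ 4.3 hpf over WT (median -0.47), 4 were higher and 0 lower in MZ 7 hpf over WT (median 0.33), and 6 were higher and 0 lower in MZ 7 hpf over MZ 4.3 hpf (median 0.77). As shares these were 5.88% lower (9.6% of all genes), 23.5% higher (13.9% of all genes) and 35.3% higher (13.8% of all genes). The widest range belonged to srsf5a, whose rat counterpart was found as a gene induced in regenerating liver. It stood at 639.5 FPKM in the MZ 7 hpf library, 41.8 in the MZ 4.3 hpf library and 208 in WT. Its log2 ratios were -2.29 for MZ 4.3 hpf over WT, 1.62 for MZ 7 hpf over WT and 3.91 for MZ 7 hpf over MZ 4.3 hpf, a 15.3-fold difference of FPKM. Of all genes measured, 2.65% had an equal or lower ratio of MZ 4.3 hpf to WT.

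The 3 SR protein genes with the highest means lay closer to WT than srsf5a. The gene srsf1a, whose human counterpart SF2/ASF was purified as a splicing factor, stood at 471 FPKM in the MZ 7 hpf library, 269 in the MZ 4.3 hpf library and 426 in WT. The level of srsf6a was 429, 321 and 446 FPKM in that order, and that of srsf2a, counterpart of the speckle marker SC35, was 579, 227 and 339 FPKM. None of these 3 was 2-fold apart between either mutant library and WT, with log2 ratios of -0.47 to -0.66 for MZ 4.3 hpf and -0.06 to 0.77 for MZ 7 hpf. Between the mutant libraries srsf2a was over 2-fold higher at MZ 7 hpf, with a log2 ratio of 1.34.

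Of the 17 genes, 4 (23.5%) had a ratio of MZ 4.3 hpf to WT above 0, against 57.6% of all genes. These were srsf6b, srsf2b, srsf7b and srsf1b. The ratio of srsf1b was 0.02 and turned sign when scaled by the median of ratios. Levels of srsf6b were 169 FPKM in the MZ 7 hpf library, 80.4 in the MZ 4.3 hpf library and 59.3 in WT, with log2 ratios to WT of 1.5 and 0.43. A low gene, srsf2b, stood at 16.3, 5.77 and 4.23 FPKM in the same order, with a log2 ratio of 1.73 for MZ 7 hpf over WT. For srsf6b and srsf2b, WT was the lowest library under all 4 scalings run. The smallest SR protein is encoded by srsf3a and srsf3b, and both were lowest at MZ 4.3 hpf. Of these, srsf3a had 122 FPKM in the MZ 7 hpf library, 39.4 in the MZ 4.3 hpf library and 57.8 in WT, with log2 ratios to WT of 1.06 at MZ 7 hpf and -0.54 at MZ 4.3 hpf. The b copy, srsf3b, had 254, 117 and 202 FPKM, with ratios of 0.33 and -0.78.

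Among hnRNP genes the A, B and D types, whose proteins share paired RNA recognition motifs and a glycine-rich tail, held most of the 2-fold differences; this grouping was made after the values were seen. Of all 21 hnRNP genes, 7 were 2-fold lower and 0 higher in MZ 4.3 hpf over WT (median -0.77), 2 were higher and 0 lower in MZ 7 hpf over WT (median 0.40), and 9 were higher and 0 lower in MZ 7 hpf over MZ 4.3 hpf (median 0.76). As shares these were 33.3% lower (9.6% of all genes), 9.52% higher (13.9% of all genes) and 42.9% higher (13.8% of all genes). The A, B and D types held 5 of the 7, 2 of the 2 and 7 of the 9. Their medians in those comparisons were -1.11, 0.48 and 1.36, while the 12 other hnRNP genes had -0.40, 0.09 and 0.55. The sum of the 9 genes in the MZ 4.3 hpf library was 0.456 of that in WT, and the sum of the 12 others was 0.765 of it.

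The 3 hnrnpa0 genes encode close relatives of hnRNP A1. The most abundant, hnrnpa0l, stood at 2125 FPKM in the MZ 7 hpf library, 799 in the MZ 4.3 hpf library and 1969.5 in WT. The second, hnrnpa0b, had 1403, 206 and 647 FPKM in that order, with log2 ratios to WT of 1.12 at MZ 7 hpf and -1.65 at MZ 4.3 hpf. The third, hnrnpa0a, had 74.4, 5.45 and 41.4 FPKM, and its log2 ratio of -2.72 for MZ 4.3 hpf over WT was the lowest of the 75 genes. All 3 were lowest at MZ 4.3 hpf by over 2-fold.

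Of the other genes of these types, 4 abundant ones and hnrnpd were also lowest at MZ 4.3 hpf, by differing amounts. The gene hnrnpd, whose mammalian product AUF1 binds AU-rich elements in mRNAs and affects their decay, stood at 63.0 FPKM in the MZ 7 hpf library, 9.36 in the MZ 4.3 hpf library and 29.15 in WT. For hnrnpa1b, a copy of the gene of the splicing repressor hnRNP A1 that was chosen after its values were seen, the levels were 667, 280 and 608 FPKM in that order. The abundant hnrnpaba and hnrnpabb, whose products also bind AU-rich and G-rich nucleic acids, had log2 ratios of -0.89 and -0.94 for MZ 4.3 hpf over WT. Levels of hnrnpaba were 1135 FPKM at MZ 7 hpf, 440 at MZ 4.3 hpf and 814 in WT, and those of hnrnpabb were 1368, 805 and 1549 FPKM.

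Outside those types, hnrnpul1, a gene related to the hnRNP U gene, stood at 35.9 FPKM in the MZ 7 hpf library, 4.41 in the MZ 4.3 hpf library and 23.9 in WT, with a log2 ratio of -2.20 for MZ 4.3 hpf over WT. The gene hnrnph1, which encodes a binder of runs of G, was the other member 2-fold lower at MZ 4.3 hpf, at 5.05, 3.48 and 8.77 FPKM. The more abundant hnrnph1l and hnrnpul1l, like these 2 by symbol, were not 2-fold lower there, with log2 ratios of -0.78 and -0.24. Levels in the same order were 178, 77.8 and 134.5 FPKM for hnrnph1l and 131, 81.8 and 96.9 FPKM for hnrnpul1l. All but hnrnpul1 were chosen after their values were seen. The gene hnrnpc, whose product coats uridine-rich stretches of nascent RNA, went the other way: it had 146 FPKM at MZ 7 hpf, 182 at MZ 4.3 hpf and 158 in WT, with a log2 ratio of 0.20 for MZ 4.3 hpf over WT. It was above 0 in that comparison under all 4 scalings run. Of the 21 hnRNP genes it and the low hnrnpa3 (1.49, 0.56 and 0.47 FPKM) alone had a ratio above 0 there. This was 9.52% of the class, against 57.6% of all genes.

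**Figure D3:**
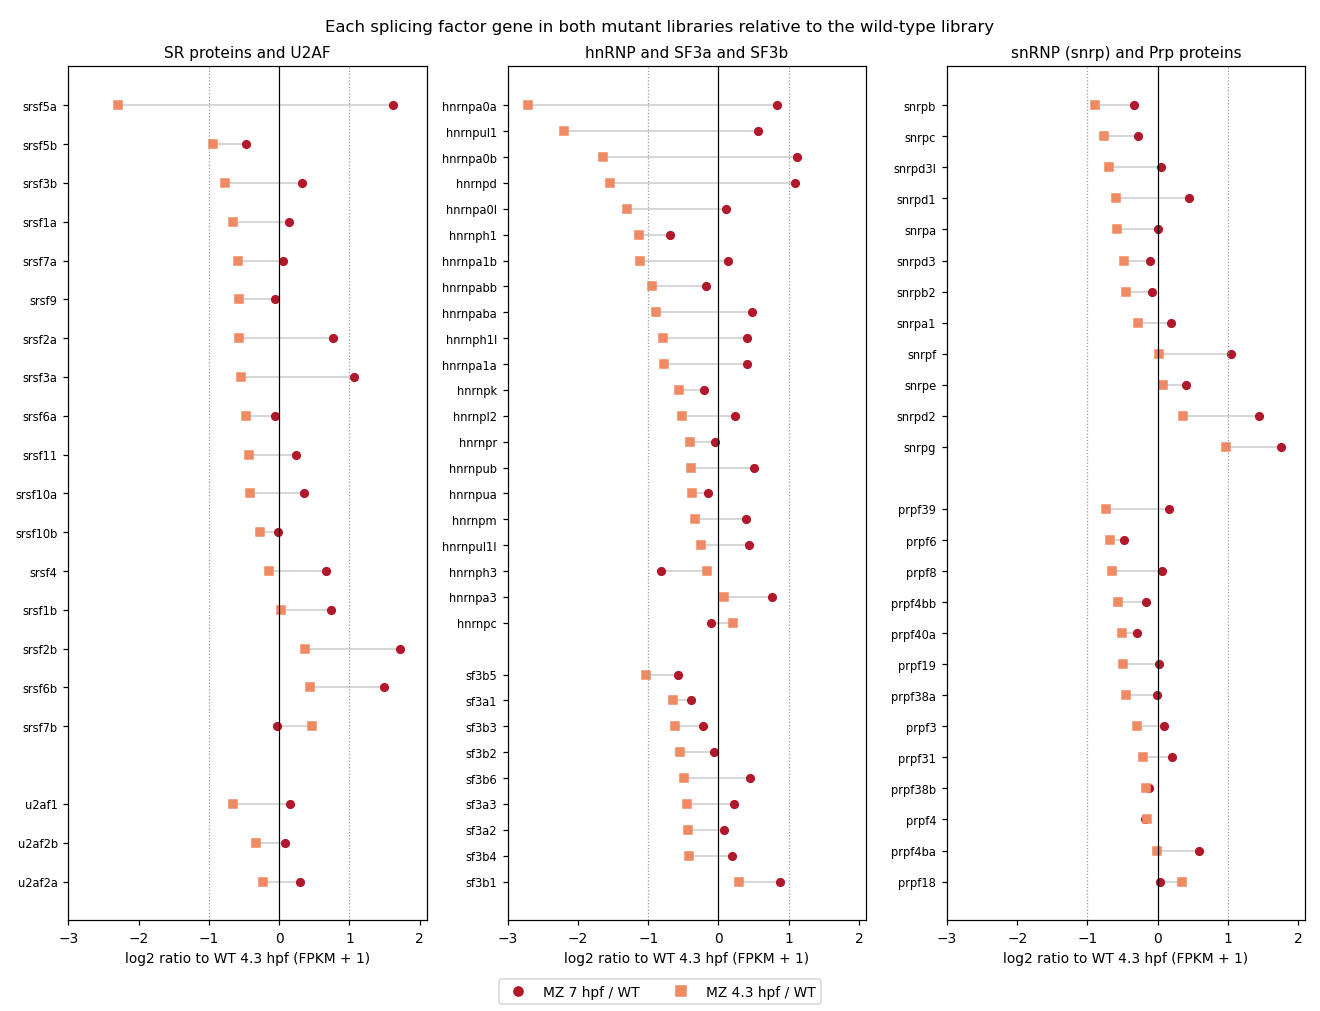
Log2 ratios of FPKM + 1 to the WT library for each of the 75 genes, circles for MZ 7 hpf and squares for MZ 4.3 hpf, ordered within a class by the MZ 4.3 hpf value; dotted lines mark 2-fold. The longest spans belong to srsf5a (-2.29 and 1.62) and hnrnpa0a (-2.72 and 0.83), and snrpf, snrpe, snrpd2 and snrpg lie right of 0 with both symbols as deposited (at MZ 4.3 hpf, snrpe and snrpf turn sign when scaled by the median of ratios, and at MZ 7 hpf snrpe does when scaled on proteasome genes).

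Recognition of the intron's end begins with U2AF, whose small subunit reads the terminal AG and whose large subunit reads the polypyrimidine tract. The small subunit gene u2af1 stood at 167 FPKM in the MZ 7 hpf library, 94.65 in the MZ 4.3 hpf library and 150.3 in WT. The large subunit genes had 121, 84.6 and 99.1 FPKM for u2af2a and 179, 135 and 169 FPKM for u2af2b in the same order. None of the 3 was 2-fold apart in any comparison, where 9.6% to 22.2% of all genes passed 2-fold in a given direction. All 3 were lowest in the MZ 4.3 hpf library, with log2 ratios to WT of -0.66, -0.23 and -0.32. At MZ 7 hpf their ratios to WT were 0.08 to 0.29 as deposited and below 0 when scaled on proteasome genes.

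SF3a and SF3b are protein complexes of the U2 snRNP that hold the branch point. Of their 9 genes, 1 was 2-fold lower in MZ 4.3 hpf over WT (11.1%, against 9.6% of all genes), and the median was -0.49. In either comparison of the MZ 7 hpf library 0 passed 2-fold, with medians of 0.08 over WT and 0.50 over MZ 4.3 hpf. Of all genes, 13.9% were higher and 12.5% lower over WT there, and 13.8% and 22.2% over MZ 4.3 hpf. The 2-fold lower gene was sf3b5, a small subunit of SF3b, at 57.6 FPKM in the MZ 7 hpf library, 41.8 in the MZ 4.3 hpf library and 86.4 in WT. With a log2 ratio of -1.03 it sat at the threshold and did not pass it when the libraries were scaled to equal sums or on proteasome genes. The exception in direction was sf3b1, the subunit that contacts the branch point, which is recurrently mutated in human blood cancers. It had 114 FPKM at MZ 7 hpf, 75.8 at MZ 4.3 hpf and 61.4 in WT, and so stood lowest in WT, with log2 ratios of 0.88 and 0.30. The most abundant genes of the complexes were sf3b4, at 335, 220 and 294 FPKM, and sf3a1, at 209.6, 176 and 275.5 FPKM.

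The snrp genes are given by the position of their product in the particle, a grouping made after the values were seen. They did not split cleanly by it, as the Sm ring genes differed among themselves. The 4 genes of proteins specific to the U1 and U2 snRNPs (snrpa, snrpc, snrpa1 and snrpb2) had log2 ratios of -0.29 to -0.77 for MZ 4.3 hpf over WT and lay within -0.27 to 0.19 of WT in the MZ 7 hpf library. The U1 gene snrpc, whose product helps U1 pair with the start of the intron, had 342 FPKM at MZ 7 hpf, 243 at MZ 4.3 hpf and 413 in WT. Of the Sm ring, the genes of the B and D3 proteins were also below WT at MZ 4.3 hpf, though snrpb lay outside both ranges. It had log2 ratios to WT of -0.90 at MZ 4.3 hpf and -0.33 at MZ 7 hpf. Its levels were 305 FPKM in the MZ 7 hpf library, 206 in the MZ 4.3 hpf library and 385 in WT. For snrpd3 the levels were 276, 215 and 299 FPKM in that order, and for snrpd3l 154, 92.1 and 149.8 FPKM.

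The genes of the remaining Sm ring proteins were mixed. The gene of D1, snrpd1, had 146 FPKM at MZ 7 hpf, 70.2 at MZ 4.3 hpf and 107 in WT, and its log2 ratio of -0.60 for MZ 4.3 hpf over WT lay within the range of the U1 and U2 genes. The gene of E, snrpe, had 66.7, 52.65 and 50.1 FPKM in that order, with ratios to WT of 0.40 and 0.07 whose signs depended on the scaling. Neither was 2-fold apart from WT. The gene of G, snrpg, stood at 43.3 FPKM in the MZ 7 hpf library, 24.6 in the MZ 4.3 hpf library and 12.1 in WT, with log2 ratios to WT of 1.76 and 0.97. For snrpd2 the levels were 52.3, 24.2 and 18.65 FPKM in that order, with ratios of 1.44 and 0.36. Both were lowest in WT under all 4 scalings run. The gene snrpf, chosen after its values were seen, had 38.0, 18.1 and 17.8 FPKM, a ratio of 1.05 for MZ 7 hpf and 0.02 for MZ 4.3 hpf, the MZ 4.3 hpf sign turning when scaled by the median of ratios. Over the 5 genes of D1, D2, E, F and G the median ratio to WT was 1.05 at MZ 7 hpf and 0.07 at MZ 4.3 hpf. When scaled by the median of ratios it was -0.09 at MZ 4.3 hpf, and on proteasome genes it was 0.60 at MZ 7 hpf. Under proteasome scaling 3 of the 5 genes were above 0 at MZ 7 hpf and 1 was 2-fold higher, against 5 and 3 as deposited. They are also the lower part of the ring by level, with a median of 18.65 FPKM in WT, where the 3 genes of B and D3 had a median of 299 FPKM. The lowest of those 3, snrpd3l, had 149.8 FPKM in WT, nearer to snrpd1 than to that median. FPKM divides by transcript length, and the lengths the authors used are not in the table.

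Prp proteins act in the tri-snRNP and at catalysis, and none of their genes reached 2-fold. Of 13 genes, 0 were 2-fold apart in any comparison. Of all genes, 16.6% were higher and 9.6% lower in MZ 4.3 hpf over WT, and 13.9% and 12.5% in MZ 7 hpf over WT. Between the mutant libraries these shares were 13.8% and 22.2%. Log2 ratios of the 13 genes ran from -0.73 to 0.34 for MZ 4.3 hpf over WT. For MZ 7 hpf they ran from -0.47 to 0.59 over WT and from -0.32 to 0.90 over MZ 4.3 hpf. The ubiquitin ligase gene prpf19 stood at 173 FPKM in the MZ 7 hpf library, 122 in the MZ 4.3 hpf library and 172 in WT. The gene prpf6, whose product bridges U5 to U4/U6, had 47.0, 40.5 and 65.7 FPKM in that order and was the member of the class with the lowest ratio of MZ 7 hpf to WT. In the other direction, prpf18, which encodes a factor of the second catalytic step, had 32.5 FPKM at MZ 7 hpf, 40.7 at MZ 4.3 hpf and 31.8 in WT, the highest ratio of the class for MZ 4.3 hpf over WT at 0.34. The gene of the U4/U6 protein Prp4, prpf4, stood at 106, 108 and 119.8 FPKM.

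Zebrafish carry many of these genes as a pair of copies (a and b), left by a genome duplication in bony fish. There were 13 such pairs, and in each the same copy was higher in all 3 libraries. The shares depend on how reads common to both copies were divided, which the notes used here do not describe. In 5 pairs the higher copy exceeded the other by over 3-fold in every library: srsf1, srsf2, srsf7, hnrnpa0 and hnrnpu. For srsf7 the a copy held 99.8%, 99.5% and 99.8% of the pair's FPKM in the MZ 7 hpf, MZ 4.3 hpf and WT libraries.

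The srsf5 pair shifted most between libraries. Copy a held 95.4% of the pair's FPKM in the MZ 7 hpf library, 65.3% in the MZ 4.3 hpf library and 82.7% in WT. The b copy varied less, at 31.1, 22.1 and 43.6 FPKM in that order. The log2 ratio of srsf5a exceeded that of srsf5b by 3.43 for MZ 7 hpf over MZ 4.3 hpf, and scaling of whole libraries cancels in that difference apart from the pseudocount. In the srsf6 pair the a copy held 71.7%, 79.9% and 88.3%, so that the b copy's share was smallest in WT. In the hnrnpa0 pair copy a was the minor one, at 5.03%, 2.58% and 6.01%. In the u2af2 pair copy a held 40.4%, 38.6% and 37.0%.

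**Figure D4:**
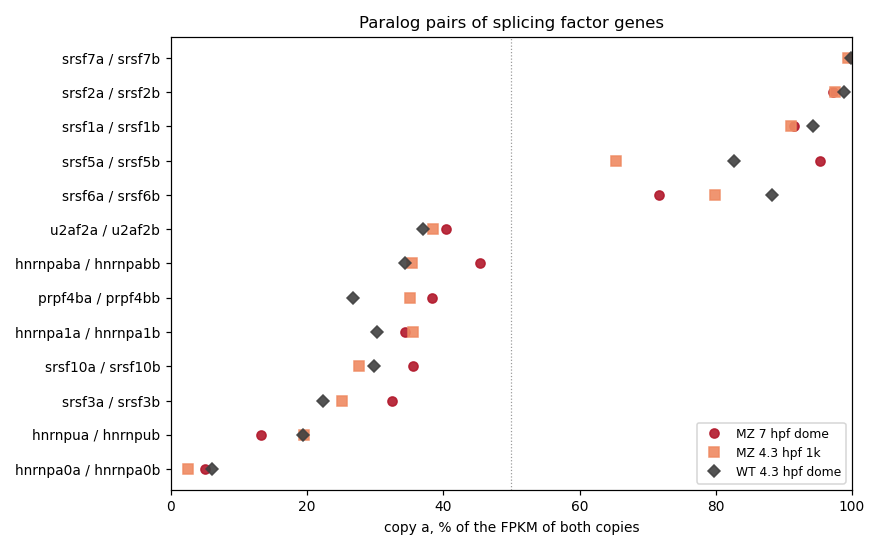
Share of copy a in the summed FPKM of 13 pairs of gene copies, in percent, with circles for MZ 7 hpf, squares for MZ 4.3 hpf and diamonds for WT; the dotted line marks equal levels. No pair crosses the line between libraries, and srsf5a ranges from 65.3% to 95.4%.

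Other genes of the splicing pathway were read from 6 lists outside the symbol rule. Of their 176 names, 169 matched 1 row with values and 163 of these reached a mean of 1 FPKM. For MZ 4.3 hpf over WT, 7 of the 163 were 2-fold higher and 3 lower (median -0.28); for MZ 7 hpf over WT, 16 were higher and 7 lower (median -0.02); and for MZ 7 hpf over MZ 4.3 hpf, 16 were higher and 11 lower (median 0.37). Each of these counts lay below the share of the genes averaging 1 FPKM or more. That share was 16.6% higher and 9.6% lower, 13.9% higher and 12.5% lower, and 13.8% higher and 22.2% lower in those comparisons. Of genes averaging 10 FPKM or more, 9.26% were higher in MZ 7 hpf over WT and 9.63% in MZ 7 hpf over MZ 4.3 hpf. Both counts of 16 higher genes lay close to those shares. The balance depended on the scaling: on proteasome genes, 5 were higher and 22 lower for MZ 7 hpf over WT (median -0.43), and 7 were higher and 20 lower for MZ 7 hpf over MZ 4.3 hpf (median -0.14). By the median of ratios, 5 were higher and 11 lower for MZ 4.3 hpf over WT. The medians of the 72 measured splicing factor genes were -0.50, 0.15 and 0.63. Of 32 further genes of the U1, U2, U5, tri-snRNP and minor spliceosome particles, 1 was higher and 0 lower in MZ 4.3 hpf over WT. In each comparison of MZ 7 hpf, 2 were higher and 0 lower. The gene higher in MZ 4.3 hpf over WT was the U11/U12 gene snrnp48, of the minor spliceosome. It had 23.6 FPKM at MZ 7 hpf, 36.2 at MZ 4.3 hpf and 7.75 in WT. The U1 gene snrnp70, whose product binds the U1 RNA, had 292, 103 and 124 FPKM in that order.

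Genes of the catalytic step and of SR kinases, SR-related and exon junction proteins had few 2-fold differences. Of 33 catalytic-step genes, 0 were higher and 1 lower (3.03%) in MZ 4.3 hpf over WT. Of all genes, 16.6% were higher and 9.6% lower there. The lower gene was isy1, at 27.5, 15.7 and 32.6 FPKM in the MZ 7 hpf, MZ 4.3 hpf and WT libraries. In each comparison of MZ 7 hpf, 2 of the 33 (6.06%) were higher and 0 lower, among them crnkl1, at 61.2, 27.5 and 26.4 FPKM. Of all genes, 13.9% were higher and 12.5% lower over WT there, and 13.8% and 22.2% over MZ 4.3 hpf. Of the 31 measured genes of the SR kinase, SR-related and exon junction list, 0 passed 2-fold in MZ 4.3 hpf over WT. In each comparison of MZ 7 hpf, 2 of the 31 were higher and 0 lower. These counts too lay below the shares of all genes. The SR-related gene rbm39a stood at 159.9 FPKM at MZ 7 hpf, 81.4 at MZ 4.3 hpf and 78.5 in WT. The gene of transportin 3, tnpo3, the import receptor of SR proteins, was chosen after its values were seen and had 149, 137 and 169.9 FPKM.

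Splicing regulators outside the rule had the highest single ratio of the lists in both comparisons of MZ 7 hpf. Of 38 measured genes, 1 was higher and 1 lower in MZ 4.3 hpf over WT, 9 were higher and 2 lower in MZ 7 hpf over WT, and 10 were higher and 0 lower in MZ 7 hpf over MZ 4.3 hpf. The shares of all genes were 16.6% and 9.6%, 13.9% and 12.5%, and 13.8% and 22.2%, higher and lower in the same order of comparisons. With proteasome scaling 4 of the 38 were higher and 5 lower in MZ 7 hpf over WT, where the median went below 0 (-0.29, against 0.15 as deposited), and 7 were higher and 3 lower in MZ 7 hpf over MZ 4.3 hpf. The gene esrp1, which encodes an epithelial splicing regulator, stood at 43.4 FPKM in the MZ 7 hpf library, 0.23 in the MZ 4.3 hpf library and 1.08 in WT. For ptbp1a, a polypyrimidine tract binding repressor gene, the levels were 62.2, 6.37 and 8.58 FPKM, and for ewsr1a, of the FET family of RNA binding proteins, 70.3, 10.1 and 15.6 FPKM. All 3 stood over 4-fold higher in the MZ 7 hpf library than in the other 2 libraries. The abundant khdrbs1a, a gene of the Sam68 type, was lowest at MZ 4.3 hpf, with 1655 FPKM in MZ 7 hpf, 438 in MZ 4.3 hpf and 1174 in WT.

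**Figure D5:**
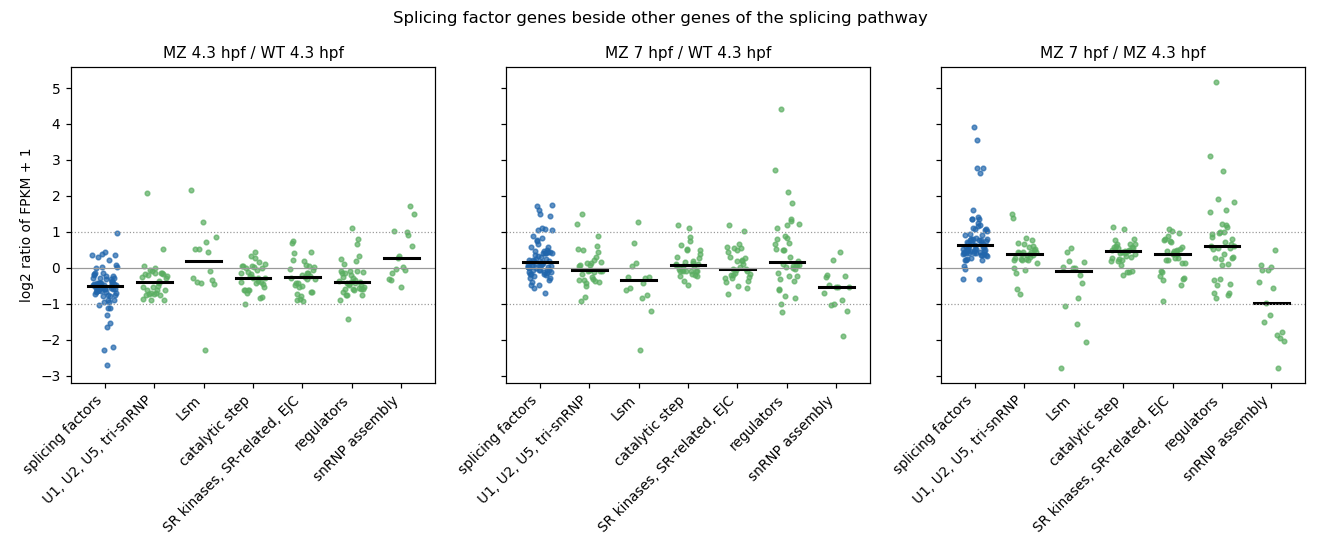
Log2 ratios of FPKM + 1 in the 3 comparisons for the 72 measured splicing factor genes (blue) and 6 lists of other splicing genes (green) averaging 1 FPKM or more; bars are medians and dotted lines mark 2-fold. The snRNP assembly list has medians of 0.26, -0.54 and -0.99 from left to right.

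The symbol rule leaves out 3 hnRNP genes that the table lists under other symbols and that the reference table names hnrnpl, hnrnpdl and hnrnpll. The gene hnrnpl, a binder of CA repeats listed as hnrpl, had 283 FPKM at MZ 7 hpf, 112 at MZ 4.3 hpf and 157 in WT, and hnrnpdl, listed as hnrpdl, had 124, 92.5 and 121 FPKM. The third, hnrnpll, stood at 1.95, 3.20 and 0.62 FPKM. By its name hnrnpdl is D-like, but the symbol rule kept it out of the A, B and D types. Its log2 ratio was -0.38 for MZ 4.3 hpf over WT. For MZ 7 hpf it was 0.04 over WT and 0.42 over MZ 4.3 hpf. These lay nearer the medians of the other hnRNP genes (-0.40, 0.09 and 0.55) than those of the A, B and D types (-1.11, 0.48 and 1.36).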

How the data were processed

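Total RNA of dechorionated whole embryos was sequenced in 3 libraries, 1 per group, grouped by their titles. The deposited table holds 1 column of FPKM per library, made by the authors and rounded to 0.01, per the file headers. Per the submitters' processing notes, GRCz11, RSEM 1.2.8, Bowtie2 2.2.5 and Trimmomatic 0.36 were used, in roles that are not stated. Of 26437 rows, 1051 have no value and were left out. All 75 members were found by gene ID in a RefSeq table of the assembly GRCz12tu, which was used only for names. No protein or promoter sequence was analysed here.

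Pairs of libraries were compared by log2((a + 1)/(b + 1)) of FPKM, with counts at 2-fold. Background shares are over the 14306 genes averaging 1 FPKM or more, or those averaging 10 FPKM or more. Depth is unknown, and no test, error or p-value was possible. The ratios, their medians and the scaling by the median of ratios were tested on simulated data. The scalings to equal sums and on proteasome genes were not.

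The members, lists and classes were chosen with earlier results of these data known. Named genes are, per comparison and direction, up to 6 members with the largest ratio and at least 10 FPKM in the higher library; the 3 most abundant per class; every member of a class of 6 or fewer; the partner copies of the first kind; the mutated genes; and up to 3 per other list and comparison. Any other gene is marked in the text as picked with its values known, or belongs to a group formed in that way. Copies prpf38a and prpf38b, separate genes in human too, were not taken as a pair. Alternatives tried were thresholds of 1.5-fold and 4-fold, scaling on 35 proteasome genes, by the median of ratios or to equal sums, pseudocounts of 5 and 0.1, and a filter at 10 FPKM or none. Software was matplotlib 3.10.9, scipy 1.17.1, pandas 2.3.3 and numpy 2.4.6 under Python 3.11.15.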

Additional observations from a re-analysis of the deposited data

How the results depend on the processing

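No paired analysis was possible because each group holds 1 library, and no library could be left out for the same reason. A median was taken as shifted where it left the 95% order-statistic interval of the genes in the main setting, and a count where it differed by over 1.5 times. The 3 U2AF genes are too few for such an interval, so the range of their values was used. These limits describe the spread over genes in 1 pair of libraries, not between replicates. Of 201 recomputed medians and counts, 167 stayed within those limits and 29 shifted. The other 5, whose interval or range lay on 1 side of 0, turned their sign, each under proteasome scaling. Removing the filter, raising it to 10 FPKM and a pseudocount of 5 FPKM shifted none of the medians and counts of the family and its classes.

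Proteasome scaling turned the sign of the family's median for MZ 7 hpf over WT (-0.31) and of the U2AF median there (-0.31), and, for MZ 7 hpf over MZ 4.3 hpf, of the medians of SF3 (-0.024), Prp (-0.12) and U2AF (-0.0099) genes. It also moved, for MZ 7 hpf over WT, the medians of SR (-0.11), snrp (-0.34) and Prp (-0.45) genes, with 4 genes higher and 2 lower. For MZ 7 hpf over MZ 4.3 hpf it moved those of the family (0.10), SR (0.27), hnRNP (0.37) and snrp (0.047) genes, with 6 genes higher. By the median of ratios the family's median became -0.66 for MZ 4.3 hpf over WT and 0.79 for MZ 7 hpf over MZ 4.3 hpf, and for MZ 4.3 hpf over WT those of SR and SF3 genes became -0.67 and -0.66. With equal sums the family's median for MZ 4.3 hpf over WT was -0.41 and that of SF3 -0.40, and for MZ 7 hpf over MZ 4.3 hpf those of SF3 and U2AF were 0.39 and 0.40. These shifts follow from the scaling itself, which moves all genes together.

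For MZ 4.3 hpf over WT, 1 gene was 2-fold higher in place of 0 with equal sums, proteasome scaling or a pseudocount of 0.1 FPKM. At 1.5-fold, of the 72 genes averaging 1 FPKM or more, 1 was higher and 27 lower there, 15 higher and 1 lower in MZ 7 hpf over WT, and 39 higher in MZ 7 hpf over MZ 4.3 hpf. At 4-fold these were 3 lower for MZ 4.3 hpf over WT, 0 higher for MZ 7 hpf over WT and 5 higher for MZ 7 hpf over MZ 4.3 hpf. Shares of all genes at 1.5-fold and 4-fold are not given here, so these counts cannot be set against genes at large. For single named genes, 85 recomputed ratios crossed 2-fold and 1070 did not, and 0 of those past 2-fold turned their sign. Depth is unknown, so ratios of the lowest genes (srsf7b, hnrnpa3 and hnrnph3) have no known precision.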

Other observations

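Genes for the assembly and import of snRNPs had their largest differences between the mutant libraries. Of 15 such genes, 0 were 2-fold higher and 7 lower in MZ 7 hpf over MZ 4.3 hpf (46.7% lower, against 22.2% of all genes; median -0.99, where all genes had -0.21). In MZ 7 hpf over WT, 0 were higher and 3 lower (20%, against 12.5% of all genes; median -0.54, where all genes had -0.05). In MZ 4.3 hpf over WT, 3 were higher and 0 lower (20%, against 16.6% of all genes), and the median of 0.26 lay close to the 0.16 of all genes. The gene phax, of the adaptor that exports newly made snRNAs, stood at 28.8 FPKM in the MZ 7 hpf library, 120.4 in the MZ 4.3 hpf library and 42.3 in WT. The gene of the Cajal body protein coilin, coil, had 7.67, 59.25 and 31.3 FPKM in that order, and snupn, which encodes the import adaptor of capped snRNPs, had 44.3, 156 and 103 FPKM. The cap hypermethylase gene tgs1 had 2.31, 11.8 and 2.89 FPKM, and gemin5, which encodes the snRNA-binding subunit of the SMN complex, had 4.33, 14.1 and 6.37 FPKM. The SMN gene itself, smn1, was highest in WT: it stood at 28.7 FPKM at MZ 7 hpf, 38.0 at MZ 4.3 hpf and 47.8 in WT. It was chosen after its values were seen. All 3 medians kept their sign under the 3 other scalings.

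The Lsm list mixed functions. Of 14 genes, 2 were higher and 1 lower in MZ 4.3 hpf over WT, 1 was higher and 2 lower in MZ 7 hpf over WT, and 0 were higher and 4 lower in MZ 7 hpf over MZ 4.3 hpf. As shares, 14.3% were higher in the first comparison (16.6% of all genes), 14.3% lower in the second (12.5%) and 28.6% lower in the third (22.2%), all near those of genes at large. The genes that differed most between the mutant libraries act largely outside splicing. The gene lsm1, which encodes the subunit that sets the cytoplasmic mRNA decay ring apart from the nuclear one, had 5.20 FPKM at MZ 7 hpf, 41.9 at MZ 4.3 hpf and 8.51 in WT. The gene lsm14b, of a family that represses translation, had 54.7, 234 and 128 FPKM, and lsm11, of the U7 particle that processes histone mRNA, had 27.1, 81.4 and 49.3 FPKM. The subunit of the nuclear U6 ring, lsm8, had 16.75 FPKM at MZ 7 hpf, 16.8 at MZ 4.3 hpf and 6.41 in WT. As deposited it was over 2-fold higher than WT in both mutant libraries, with log2 ratios of 1.26 and 1.27 in that order. The gene lsm10 was listed at 0 in both mutant libraries and at 3.86 FPKM in WT. The maternal genes of the stage check differed alongside lsm1 and the assembly genes: 6 of 10 were 2-fold lower in MZ 7 hpf over MZ 4.3 hpf. Their part in these values was not tested.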
